A study of Mus musculus with 12 samples.

Results

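Haemoglobin and other red cell genes were followed across 12 single-colour arrays of sorted mouse blood monocytes, as a measure of red cell RNA in those samples. The 9 genes listed for this purpose were Hbb-b1, Hbb-bs, Hba-a1, Ahsp, Alas2, Slc4a1, Epb42, Klf1 and Hemgn. Of these, 7 were found by symbol among the 23279 genes of the table, while Hba-a1 and Ahsp were not analysed here. The genes were chosen by their measured levels on these same arrays, which part the arrays into groups, so those levels are given as a description without a test.

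The cells came from 6 arrays labelled TRIM33 and 6 labelled WT, all of strain C57BL/6 LyzCre and aged 6 to 8 weeks. LyzCre is a recombinase expressed from a lysozyme gene, so it acts in monocytes, macrophages and granulocytes. The labels do not state if it is also present in the WT mice. The design text describes a sort for CD11b, CD115 and high Ly6C from blood, the phenotype of inflammatory monocytes, while the treatment text of the labels describes CD4 T cells. Titles call 2 arrays of each genotype mixes, without saying what was mixed. The labels do not tie arrays to animals, so p-values here reflect only array-to-array spread, which may be technical.

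Red cells lose their nucleus late in their development. Young red cells that have just entered the blood, the reticulocytes, still carry RNA, mostly for globins and for enzymes that complete heme. Their nucleated precursors in the bone marrow also express the transcription factors that switch these genes on, among them Gata1 and Klf1. Monocytes are a separate lineage that makes no haemoglobin, although blood monocytes and red cells circulate together and can be collected together.

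Trim33, the targeted gene, followed the labels: its log2 values were 6.06 to 6.23 on the TRIM33 arrays and 6.81 to 7.05 on the WT arrays, a difference of -0.79 (SE 0.0671, limma adjusted p = 0.000637). Array medians lay between 4.16 and 4.25 (log2). Average-linkage clustering of the arrays over all features except the 7 red cell genes gave 2 sets of 6, each with 3 TRIM33 and 3 WT arrays. They are named here for the sex-linked genes that mark them. Xist, the RNA of X inactivation in females, had log2 values of 9.01 to 10.2 in the Xist set and of 3.36 to 3.64 in the Y set. The Y-linked Eif2s3y read 8.09 to 8.47 in the Y set and 2.19 to 2.89 in the Xist set. All 4 mixes lay in the Y set. Markers of the sorted cells were high in both sets, but not all at the same level. Ly6c2, a gene for the Ly6C antigen, lay at 12.3 to 12.5 in the Y set and 12.2 to 12.4 in the Xist set. Csf1r, which encodes CD115, read 10.9 to 11.1 and 9.73 to 10.1, and Itgam, which encodes CD11b, 10.4 to 10.7 and 9.40 to 9.88. Of 8 measured genes of Ly6C-high monocytes, 3 were higher in the Y set without overlap, Csf1r and Itgam among them, against 6.59% of all genes. The sets also parted by genes of dividing and immature cells: the mean log2 value of 18 cell cycle genes was 4.74 to 5.62 in the Y set and 9.18 to 9.26 in the Xist set, and that of 7 primary granule genes 5.61 to 6.48 and 9.64 to 9.97. The highest Y set mean of both lists was on TRIM33 replicate 2. Sex-linked, cell cycle and granule genes thus parted the same arrays, and only the Y set held mixes. Sex, cell stage and preparation therefore cannot be told apart in a difference between the sets.

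The beta-globin genes had the highest differences between the array sets, as measured. Hbb-bs, which encodes an adult beta chain of haemoglobin, read 10.6, 11.6 and 11.8 (log2) on the TRIM33 arrays of the Y set and 10.9, 11.4 and 11.8 on its WT arrays. In the Xist set it read 2.32, 3.0 and 1.71 on the TRIM33 arrays and 1.5, 3.30 and 1.99 on the WT arrays. Every Y set array was high and every Xist set array low, in both genotypes. The mean was 11.4 ± 0.513 (SD, n = 6) in the Y set and 2.30 ± 0.718 (SD, n = 6) in the Xist set, a measured difference of 9.06 (log2), rank 1 of 23279 genes from the highest.

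Hbb-b1, a beta-globin gene of another haplotype of the same locus, had nearly the same value on every Y set array. It read 11.2, 11.1 and 11.4 (log2) on the TRIM33 arrays there and 11.1, 11.05 and 11.2 on the WT arrays. In the Xist set it read 2.84, 4.31 and 2.93 on the TRIM33 arrays and 2.76, 2.95 and 2.97 on the WT arrays, so TRIM33 replicate 5 stood above the other 5. The difference between the set means, 8.04 (log2) as measured, was rank 2 of all genes. Hbb-b1 and Hbb-bs are closely similar copies, and C57BL/6 mice are known to carry the haplotype of Hbb-bs, so the probes of the Hbb-b1 feature may read Hbb-bs or its neighbour Hbb-bt. Its values are therefore uncertain as a measure of Hbb-b1 itself.

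No detection call was used here, so the low values are not shown to lie above the background of the arrays. The differences and ranks depend on them, and no fold is given. On the same 6 Xist set arrays the Y-linked Eif2s3y, Kdm5d and Uty read 2.19 to 3.27 (log2). In bulk RNA, fewer red cells and less RNA per red cell cannot be told apart.

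**Figure D1:**
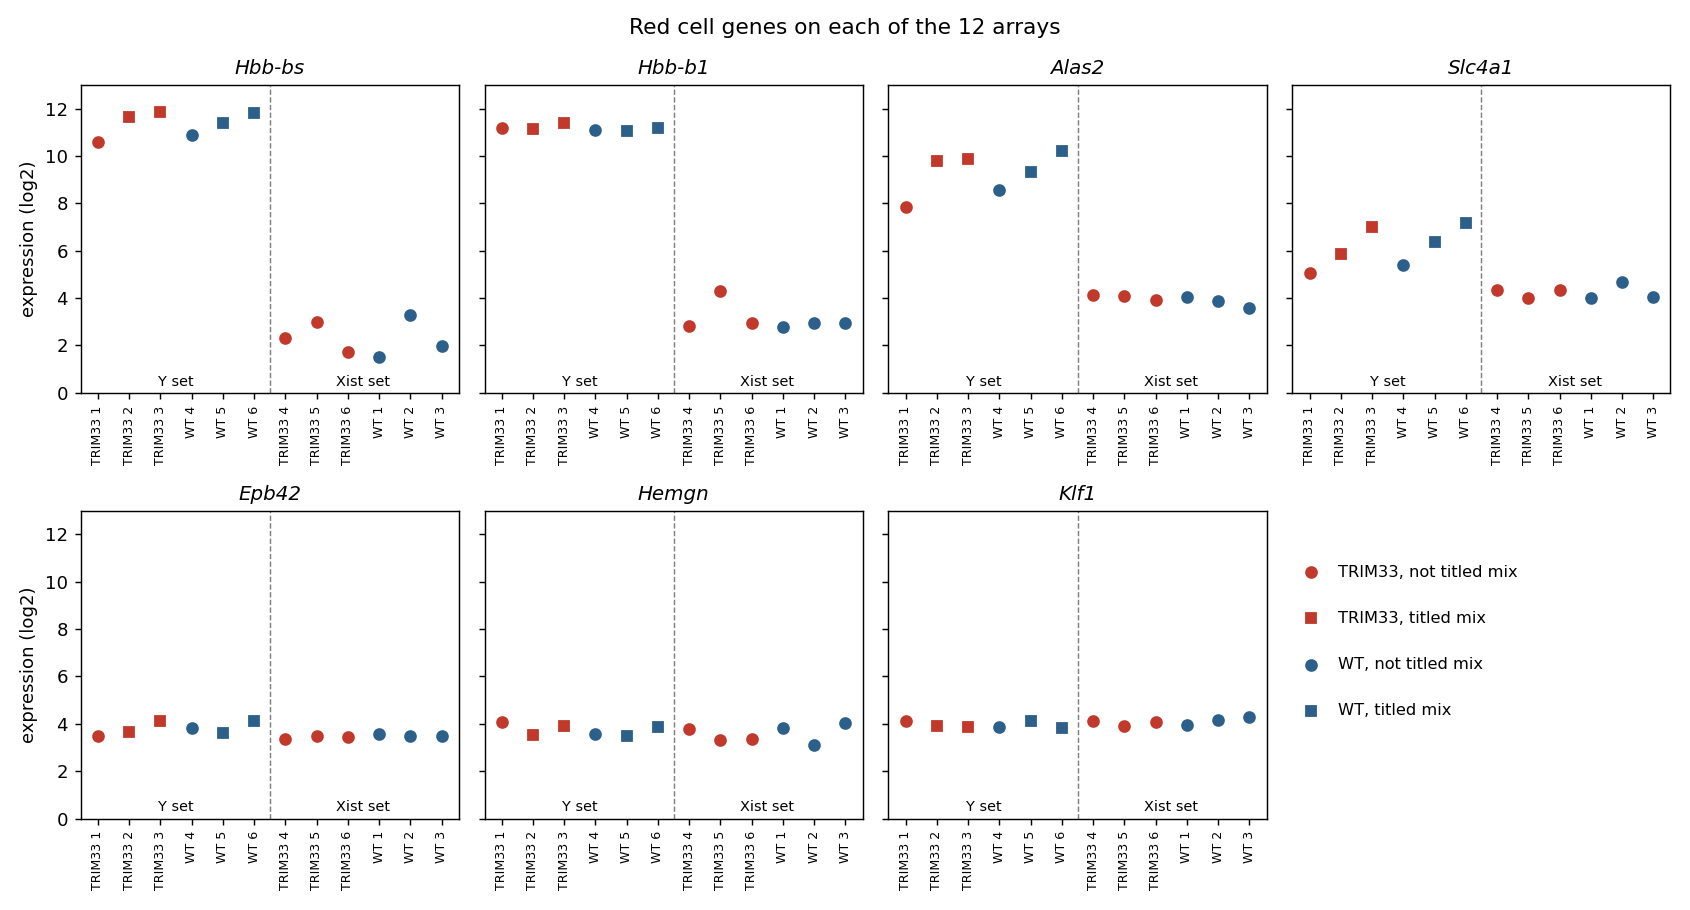
Log2 expression of the 7 measured red cell genes (one panel each) on every array, with TRIM33 in red, WT in blue, squares for arrays titled as mixes and circles for the others; the dashed line parts the Y set from the Xist set. Hbb-bs, Hbb-b1, Alas2 and Slc4a1 are higher on all 6 Y set arrays than on any Xist set array, while Epb42, Hemgn and Klf1 overlap.

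Alas2, the erythroid enzyme that starts heme synthesis, followed the globins. It read 7.83, 9.79 and 9.85 (log2) on the TRIM33 arrays of the Y set and 8.58, 9.31 and 10.2 on the WT arrays. In the Xist set the TRIM33 arrays read 4.14, 4.10 and 3.92 and the WT arrays 4.05, 3.87 and 3.57. The sets did not overlap, and the measured difference of 5.32 (log2) was rank 4 of all genes.

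Of the 2 membrane genes, 1 parted the sets. Slc4a1, which encodes band 3, the anion exchanger of the red cell membrane, read 5.08, 5.85 and 6.996 (log2) on the TRIM33 arrays of the Y set and 5.41, 6.35 and 7.18 on the WT arrays. Its Xist set values were 4.35, 4.02 and 4.32 on TRIM33 and 3.99, 4.66 and 4.06 on WT arrays. The sets did not overlap, with a measured difference of 1.91 (log2). Epb42, which encodes protein 4.2, a membrane skeleton protein bound to band 3, read 3.49 to 4.13 in the Y set and 3.35 to 3.56 in the Xist set, so its sets overlapped and the means differed by 0.34. The highest Epb42 values, 4.13 on WT replicate 6 and 4.11 on TRIM33 replicate 3, were on the arrays with the highest Slc4a1 values. Epb42 was dim, below the array medians of 4.16 to 4.25 on every array. Without a detection call it is not shown to lie above background, so a difference between the sets could be missed.

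The regulators did not part the sets. Klf1, the transcription factor that drives adult beta-globin and many other red cell genes, read 3.81 to 4.13 (log2) in the Y set and 3.91 to 4.30 in the Xist set, with means differing by -0.14. Hemgn, which encodes the nuclear protein hemogen of red cell precursors, read 3.47 to 4.07 and 3.12 to 4.02, with a difference of 0.17. For both genes, arrays with high and with low globin values lay in overlapping ranges. Both genes were dim, near or below the array medians of 4.16 to 4.25. Without a detection call they are not shown to lie above background, so a difference between the sets could be missed.

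In all, 4 of the 7 genes were higher in the Y set without overlap, against 6.59% of all 23279 genes, and 0 were higher in the Xist set without overlap, against 7.45% of all genes. The 4 include both Hbb-bs and Hbb-b1, whose features may read the same transcripts and so may not count separately. The listed genes were chosen with this pattern in view. Just inside the separation lay Slc4a1, with its lowest Y set value at 5.08 and its highest Xist set value at 4.66, and just outside it Epb42, at 3.49 and 3.56.

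The promoters of Hbb-bs, Alas2 and Klf1 are shown because the first 2 genes had sets that did not overlap, while the third encodes a factor that acts on such promoters and its sets overlapped. RefSeq promoters of build GRCm38.p6 were found for 5 of the 7 genes. The 250 bases before the transcription start run 5′ to 3′ on the gene's strand, at chr7:103827929-103828178 (minus strand) for Hbb-bs, chrX:150547167-150547416 (plus strand) for Alas2 and chr8:84901732-84901981 (plus strand) for Klf1. Capitals mark matches to a GATA hexamer (AGATAA, with AGATAG as a variant, or TGATAA, with TGATAG as a variant), to CCNCNCCC (a CACCC box, the kind of site Klf1 binds) and to CCAAT, each on either strand, and to TATAA on the gene's strand.
Hbb-bs: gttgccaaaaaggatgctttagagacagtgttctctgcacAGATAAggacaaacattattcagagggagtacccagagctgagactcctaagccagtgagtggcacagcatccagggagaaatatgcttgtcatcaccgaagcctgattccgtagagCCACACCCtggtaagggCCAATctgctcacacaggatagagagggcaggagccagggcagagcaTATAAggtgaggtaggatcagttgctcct
Alas2: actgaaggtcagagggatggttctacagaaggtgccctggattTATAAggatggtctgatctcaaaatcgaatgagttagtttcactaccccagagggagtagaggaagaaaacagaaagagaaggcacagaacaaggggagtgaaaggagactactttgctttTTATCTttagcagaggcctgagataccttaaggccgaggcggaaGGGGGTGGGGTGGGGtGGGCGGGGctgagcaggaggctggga
Klf1: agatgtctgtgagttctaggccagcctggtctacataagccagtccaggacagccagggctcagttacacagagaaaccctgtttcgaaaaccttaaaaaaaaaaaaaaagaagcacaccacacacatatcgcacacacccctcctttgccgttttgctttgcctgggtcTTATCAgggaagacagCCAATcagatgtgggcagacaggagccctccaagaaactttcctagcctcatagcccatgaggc

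Hbb-bs held 1 GATA hexamer, 1 CACCC box, 1 CCAAT box and 1 TATAA, the last at bases -29 to -25 from the start. Alas2 held 1 GATA hexamer, 1 TATAA far upstream and 4 CACCC matches between bases -42 and -19, of which the first 3 overlap. Klf1 held 1 GATA hexamer and 1 CCAAT box, and no match to the other motifs. A GATA hexamer lay in all 5 promoters found, against 26.5% of 32851 promoter windows of the same length. The CACCC box lay in 45.9% of those windows, CCAAT in 33.8% and TATAA in 16%. Of the 5 promoters, those of Hbb-bs, Alas2 and Hemgn held a CACCC match, which in Hemgn was a run of G. Those of Hbb-bs and Klf1 held CCAAT, and those of Hbb-bs, Alas2 and Hemgn held TATAA. These matches describe letters only, and GATA hexamers lay in windows of genes whose sets parted and of genes whose sets overlapped.

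No red cell gene passed the test of genotype. In the limma fit over all genes, 0 of 7 passed an adjusted p of 0.05 and 0 had an unadjusted p under 0.05, while 0.0215% of all genes passed. Over all 6 arrays of a genotype, Hbb-bs had a lowest, median and highest log2 value of 1.71, 6.81 and 11.8 in TRIM33 and of 1.5, 7.09 and 11.8 in WT. Alas2 had 3.92, 5.99 and 9.85 in TRIM33 and 3.57, 6.31 and 10.2 in WT. The ranges of the genotypes overlapped for all 7 genes. Among all genes 0.198% did not overlap, with TRIM33 above WT for 0.103% and WT above TRIM33 for 0.0945%.

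Since each genotype spans both sets, the SE of the planned fit is large: TRIM33 minus WT was 0.04 (log2, SE 2.54) for Hbb-bs, 0.30 (SE 2.25) for Hbb-b1 and 0.01 (SE 1.52) for Alas2. With the array set as a block the differences are the same and the SEs are 0.307, 0.199 and 0.320. The 95% confidence interval was then -0.61 to 0.70 (log2) for Hbb-bs, -0.13 to 0.72 for Hbb-b1 and -0.68 to 0.69 for Alas2. Slc4a1 differed by -0.17 (SE 0.305 with the block, interval -0.83 to 0.48), Epb42 by -0.10 (-0.34 to 0.14), Hemgn by 0.02 (-0.32 to 0.36) and Klf1 by -0.03 (-0.24 to 0.17). The block also gave 0 of 7 genes past the threshold, with adjusted p from 0.946 to 0.9996 by limma, against 0.0387% of all genes. These intervals bound the genotype difference and do not show that the genotypes are alike.

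Within the sets, 3 arrays against 3, limma called 0 of 7 genes in the Y set, where 0.0344% of all genes passed, and 0 of 7 in the Xist set, where 0.0129% did, and 0 had an unadjusted p under 0.05 in either. Hbb-bs differed by 0.01 (log2, SE 0.343) in the Y set and 0.08 (SE 0.433) in the Xist set. Alas2 differed by -0.21 (SE 0.578) and 0.22 (SE 0.152), and Hbb-b1 by 0.13 (SE 0.120) and 0.47 (SE 0.328). The test of the interaction of genotype and set called 0 of 7 genes, with unadjusted p from 0.272 to 0.918 by limma, while 0.0043% of all genes passed.

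**Figure D2:**
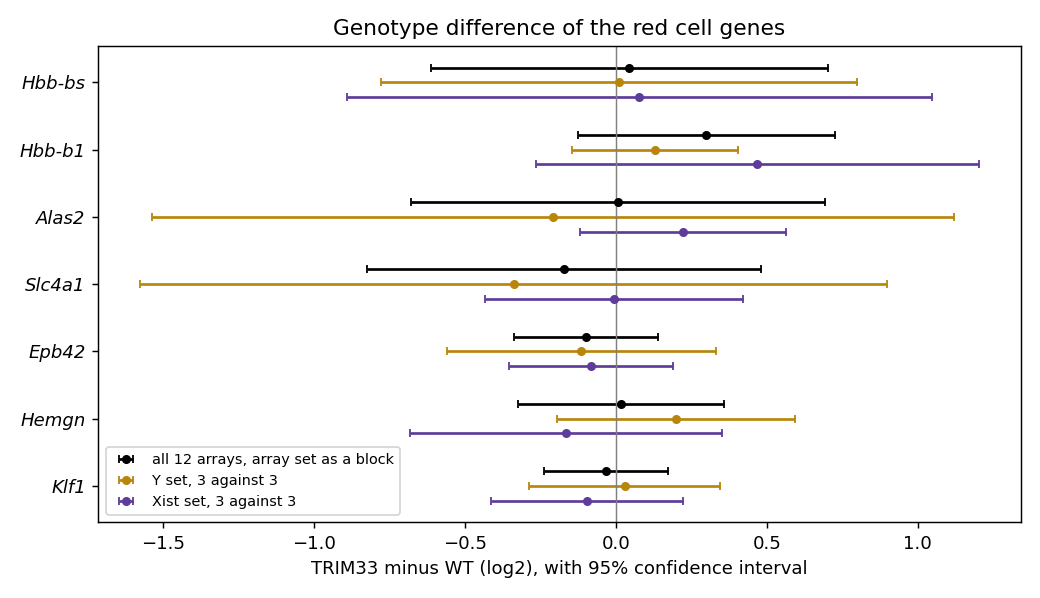
TRIM33 minus WT difference (log2, horizontal axis) of the 7 red cell genes, with points for the limma estimate and bars for the 95% confidence interval, from all 12 arrays with the array set as a block (black), the Y set alone (ochre) and the Xist set alone (purple). Every bar crosses 0, and the intervals from all arrays reach no further than -0.83 and 0.72.

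The 6 Y set arrays were not alike in red cell RNA. The lowest value was on TRIM33 replicate 1 and the next on WT replicate 4 for Hbb-bs, Alas2 and Slc4a1, and these are the 2 arrays of the set that are not titled as mixes. For Alas2 they read 7.83 and 8.58 (log2) against 9.31 to 10.2 on the mixes, a difference of means of 1.58. For Slc4a1 they read 5.08 and 5.41 against 5.85 to 7.18, and for Hbb-bs 10.6 and 10.9 against 11.4 to 11.8. Hbb-b1 showed no such step, at 11.2 and 11.1 against 11.05 to 11.4, and neither did Klf1, at 4.12 and 3.86 against 3.81 to 4.13. On 3 of the 7 genes the 4 mixes lay above the other 2 arrays without overlap, as they did on 10.6% of all genes. The labels give no mix in the Xist set, so the step could be seen only within the Y set, and 2 arrays against 4 were not tested.

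Other red cell genes were read on the same arrays. Of 79 measured genes of 7 red cell lists, 14 were higher in the Y set without overlap, 3 were higher in the Xist set and 62 overlapped. Over all genes these shares were 6.59% and 7.45%. The median difference, Y set minus Xist set, was 0.15 (log2), against -0.0015 over all genes. Some of the 14 read high in the Xist set too, where the beta-globins were low: Mpp1 9.63 to 9.91, Slc2a1 8.43 to 8.88 and Klf3 7.999 to 8.56. Others read low there, such as Hbq1a at 2.78 to 4.26 and Car2 at 2.30 to 3.70. The part of red cells in these differences was not tested. Genes named below for a difference between the sets were picked after their values were seen.

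Among the other globins, Hbq1a, a theta-globin gene, read 4.76 to 7.78 (log2) in the Y set and 2.78 to 4.26 in the Xist set. Its copy Hbq1b overlapped, at 4.41 to 6.04 and 4.11 to 5.30, and closely similar copies may share probes. The embryonic globins Hba-x, Hbb-y and Hbb-bh1 read 1.99 to 3.36 over all 12 arrays and overlapped between the sets. These 3 genes were dim and are not shown to lie above background.

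In heme synthesis, 2 of 12 genes were higher and 2 were lower in the Y set without overlap, against 6.59% and 7.45% of all genes. Slc25a37, the mitoferrin that brings iron into mitochondria, read 7.68 to 9.36 (log2) in the Y set and 5.82 to 6.34 in the Xist set. Fech, which inserts iron to complete heme, read 7.21 to 8.75 and 6.63 to 6.94. The earlier enzyme Alad ran the other way, at 5.20 to 5.81 and 6.88 to 7.22, as did Alas1, the housekeeping counterpart of Alas2, at 7.58 to 7.71 and 7.81 to 8.20. Of the 7 iron genes, the transferrin receptor Tfrc was lower in the Y set, at 4.2 to 4.81 against 5.92 to 6.50, and the heme exporter Flvcr1 higher, at 7.82 to 8.58 against 7.16 to 7.53.

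Cytosolic enzymes and factors of red cell maturation held 5 of 16 genes that were higher in the Y set without overlap, against 6.59% of all genes, and 0 that were lower. Bpgm, which makes the bisphosphoglycerate that lowers the oxygen affinity of haemoglobin, read 6.02 to 8.05 (log2) in the Y set and 4.41 to 4.67 in the Xist set. The carbonic anhydrase Car2 read 4.15 to 7.31 and 2.30 to 3.70. Ube2o, a ubiquitin ligase that clears proteins from maturing reticulocytes, read 5.89 to 7.40 and 4.71 to 5.30. The other 2 were Ube2l6 and Fam210b. Car1, another carbonic anhydrase, read 2.78 to 3.32 and 2.70 to 3.41 and overlapped, but it was dim and is not shown to lie above background.

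The membrane list held 3 of 17 genes that were higher in the Y set without overlap, Tspo2, Slc2a1 and Mpp1, with differences of 0.94, 0.40 and 0.61 (log2), against 6.59% of all genes. The other 14 overlapped, with differences of either sign, such as 0.33 for the skeleton gene Ank1 and -0.24 for the blood group gene Xk. Among the transcription factors 2 of 14 were higher in the Y set without overlap, against 6.59% of all genes, Klf3 by 1.43 and Ldb1 by 0.46. The lineage factor Gata1 read 3.83 to 4.35 in the Y set and 3.58 to 4.28 in the Xist set, and its partner Tal1 4.52 to 5.05 and 4.2 to 4.94. The erythropoietin receptor Epor read 4.08 to 4.53 and 3.92 to 4.51. Gata1 and Epor lay near the array medians and are not shown to lie above background. Of the 7 genes of cytokine signalling, 0 parted the sets, against 6.59% of all genes higher and 7.45% lower in the Y set.

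**Figure D3:**
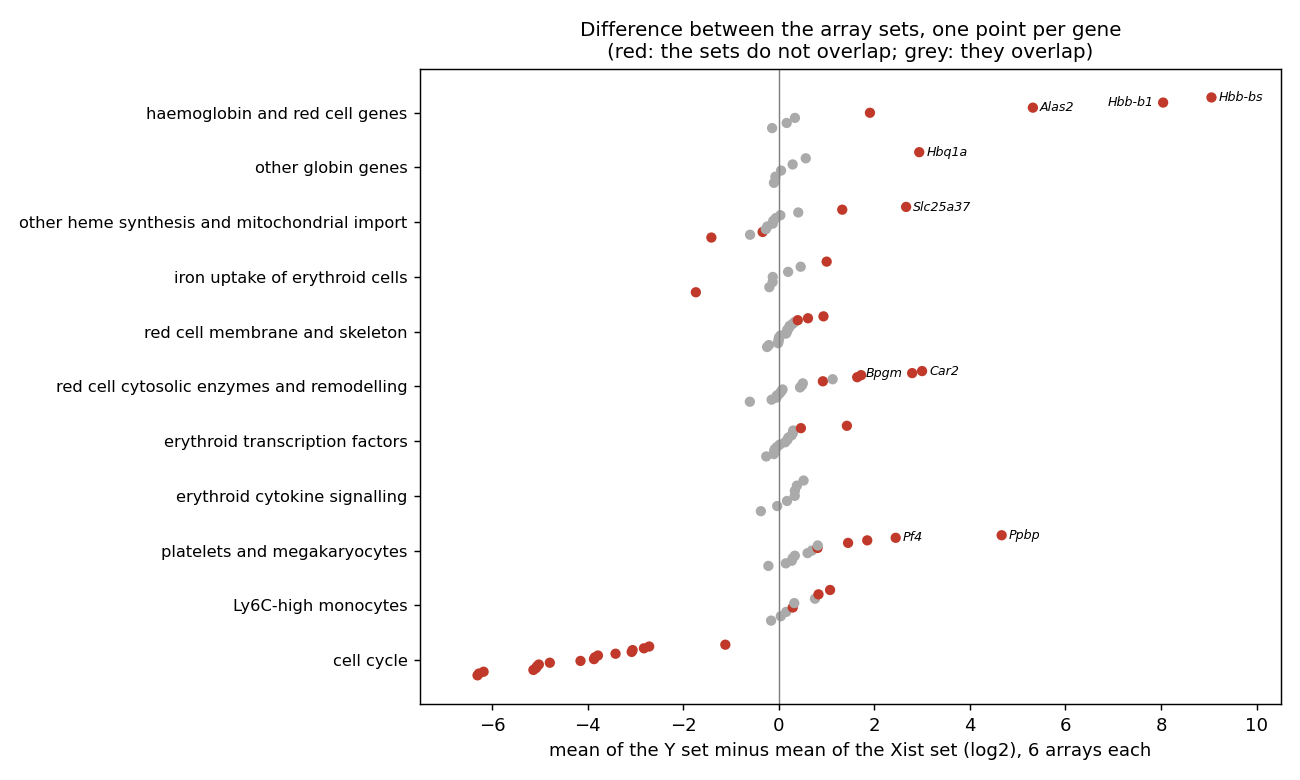
Difference between the mean of the 6 Y set arrays and that of the 6 Xist set arrays (log2, horizontal axis), one point per gene, for the measured red cell genes, the other red cell lists, platelets, Ly6C-high monocytes and the cell cycle; red points are genes whose sets do not overlap. Hbb-bs, Hbb-b1 and Alas2 lie at 9.06, 8.04 and 5.32, while all 18 cell cycle genes lie below 0.

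No gene of these red cell lists passed the test of genotype: limma called 0 of 79 genes, and 3 had an unadjusted p below 0.05. With the block it called 0, and 4 had such a p. Among all 23279 genes, 715 had such a p in the planned fit and 1229 with the block. The median TRIM33 minus WT difference was -0.02 (log2), against -0.01 over all genes tested. Slc11a2, an iron transporter, differed by -0.47 (SE 0.199), Tfr2, a second transferrin receptor, by -0.21 (SE 0.0836) and Car1 by -0.25 (SE 0.106), none of which passed. Tfr2 and Car1 were dim and are not shown to lie above background. Of heme genes, Cpox differed by -0.33 (SE 0.214) and Slc25a38 by 0.18 (SE 0.0959). Gata1 differed by 0.23 (SE 0.112), Tal1 by 0.16 (SE 0.146), Cish by 0.27 (SE 0.180), Mgst3 by 0.30 (SE 0.247) and Hbq1b by -0.24 (SE 0.296).

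Some platelet genes were higher on the same arrays as the globins. Of 13 measured platelet and megakaryocyte genes, 5 were higher in the Y set without overlap, 0 were lower and 8 overlapped, against 6.59% and 7.45% of all genes higher and lower. Their mean was 4.70 to 5.75 (log2) in the Y set and 4.08 to 4.35 in the Xist set. Ppbp, a platelet chemokine precursor, read 6.77 to 8.96 and 3.31 to 3.77, rank 5 of all genes by the difference of the sets, and Pf4 5.23 to 7.55 and 3.86 to 4.14. Itga2b, the platelet integrin chain, overlapped, at 4.03 to 4.42 and 3.54 to 4.25. On 6 of the 13 genes, against 10.6% of all genes, the mixes lay above the other Y set arrays without overlap, with Ppbp at 6.77 on TRIM33 replicate 1 and 7.89 on WT replicate 4, against 8.10 to 8.96 on the mixes. The part of platelets in the red cell values was not tested.

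Markers of other blood cells were read for the same arrays. T cell genes had a mean of 3.94 to 4.61 (log2) in the Y set and 3.58 to 3.90 in the Xist set, with 3 of 7 higher in the Y set without overlap. For B cell genes the means were 5.06 to 5.75 and 4.82 to 5.06, with 1 of 7 higher, against 6.59% of all genes. The mixes lay above the other Y set arrays without overlap for 0 of the 7 T cell genes and 0 of the 7 B cell genes and for 7 of 18 cell cycle genes, against 10.6% of all genes. Of the red cell lists, the same held for 9 of 16 cytosolic genes, 5 of 12 heme genes and 4 of 17 membrane genes. It held for 2 of 7 iron genes, 2 of 6 other globins, 0 of 14 transcription factors and 1 of 7 cytokine signalling genes. Over these lists together it held for 23 of 79 genes. Iron-recycling macrophage genes were higher in the Y set without overlap for 5 of 11, against 6.59% of all genes, among them Spic, a transcription factor of macrophages that take up red cells, at 4.59 to 5.76 against 3.25 to 3.78, and Hmox1, which degrades heme, at 9.73 to 10.2 against 8.87 to 9.34. Slc40a1, the iron exporter, and Cd163, the haemoglobin scavenger receptor, overlapped, but both were dim and are not shown to lie above background. Of 9 progenitor genes, 2 were lower in the Y set without overlap, against 7.45% of all genes, 1 was higher and 6 overlapped, with Myb at 3.52 to 4.12 and 7.79 to 8.10 and Cd34 at 4.49 to 5.03 and 6.66 to 7.21. The part of any of these cells in the red cell values was not tested.

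**Figure D4:**
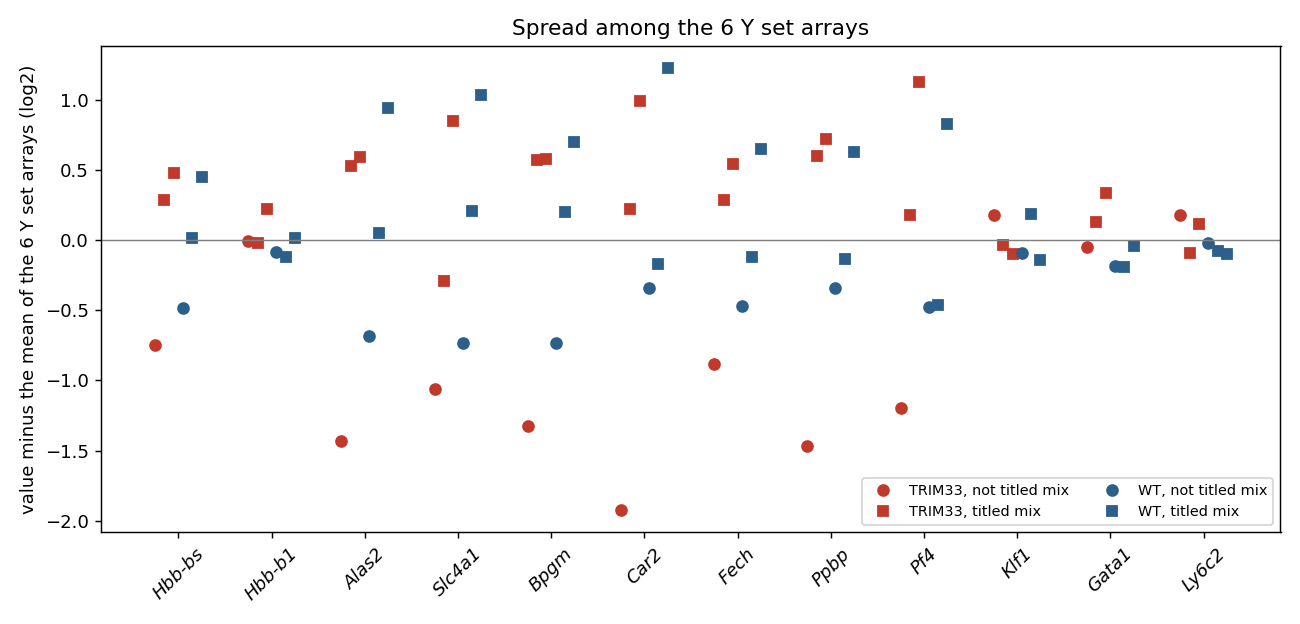
Values of 12 genes on each of the 6 Y set arrays, as the log2 value minus the mean of those arrays (vertical axis), with TRIM33 in red, WT in blue and squares for arrays titled as mixes. TRIM33 replicate 1 is lowest for Hbb-bs, Alas2, Slc4a1, Bpgm, Car2, Fech, Ppbp and Pf4, while the points of Hbb-b1, Klf1, Gata1 and Ly6c2 lie close to 0.

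The genes most like the globins across arrays were sought by Pearson's r with the mean of Hbb-bs and Hbb-b1, over 12 arrays centred within their set, in the 11635 genes of above-median mean. The 10 highest, with r from 0.871 to 0.917, were H4c9, Hpf1, Zfyve21, Sap18, Tmem237, Nudt8, Ppil3, Dpcd, Pstk and Cpne3. The Xist set arrays enter this r with globin values that are not shown to lie above background. Hbb-bs ran from 1.5 to 3.30 (log2) there and from 10.6 to 11.8 in the Y set, and Hbb-b1 stood highest there on TRIM33 replicate 5, at 4.31. These 10 genes may therefore follow background spread. Without centring, the 5 genes most alike were Ptprc, Hfe, Eif2s3y, Stard3 and Cyria. Their r is not given, since the arrays fall into 2 clusters. Hfe, a regulator of iron uptake, read 7.87 to 8.18 (log2) in the Y set and 6.29 to 6.67 in the Xist set. A search chosen after the data were seen, for likeness to Alas2 over the 6 Y set arrays alone, gave 15 genes with r from 0.981 to 0.997. In order of r these were Fam220a, Snhg7, Clcn3, Yod1, Slc25a13, Bpgm, Cat, Rps21, Fech, Idnk, Mkrn1, Prxl2a, Prss53, Eif4enif1 and Tent5c. These r are the highest of 11635 genes over only 6 arrays, where chance alone can give high values, and they were not tested. Alas2 was also higher on all mixes than on the other Y set arrays, as were 10.6% of all genes. The 15 genes did not all part the sets in 1 direction: Slc25a13, a mitochondrial carrier, read 5.14 to 5.79 (log2) in the Y set and 6.17 to 6.47 in the Xist set. Tent5c, which encodes a poly(A) polymerase, read 7.002 to 9.61 in the Y set and 4.17 to 5.24 in the Xist set, rank 9 of all genes by the difference of the sets.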

How the data were processed

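Total RNA extracted with RNeasy Mini kits was amplified and biotinylated from 900 pg by the NuGEN Ovation Pico V2 protocol, per the labels' protocols. The authors deposited log2 expression values for 24479 gene-level features on 12 arrays. RMA and Partek are named in the submitters' processing notes. No source used here gives their versions, the chip definition, the genome build or a batch step. RMA equalises arrays and compresses differences between dim genes, and amplification from picograms adds spread. Arrays carry no counting depth, so their number limits the precision.

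Features were named through the platform's Entrez numbers: 23281 had 1 symbol, 0 several and 1198 none, and RefSeq (GRCm38.p6) changed 0 symbols. Where 2 features shared a symbol, that with the higher mean stayed in, leaving 23279 genes. Genotype was tested in limma 3.58.1 (R 4.3.3, lmFit and eBayes) on all genes, with genotype only and Benjamini-Hochberg adjustment at 0.05, which was also tested on simulated data. Array sets came from clustering (scipy 1.17.1). Alternatives were other normalizations, filters, variance models, weights, the set as a block, preparation as a covariate, subsets of arrays and each array left out.

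The members, lists and alternatives were chosen with earlier results of these data known. The naming rule took all measured members, up to 4 genes of each list (those called, or those of highest mean and largest genotype difference), and the genes most like the globins; genes picked for their set difference fall outside it. Lists fixed for other cells were platelets, progenitors, primary granules, neutrophils, B cells, T cells, Ly6C-high monocytes, iron-recycling macrophages, the cell cycle and sex-linked genes. Neutrophil genes had a mean log2 value of 5.79 to 7.05 in the Y set and 6.58 to 7.11 in the Xist set. The 7.05 was on TRIM33 replicate 2, and the next highest Y set array, TRIM33 replicate 3, read 6.31. Figures were drawn with matplotlib 3.10.9.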

Additional observations from a re-analysis of the deposited data

Results flagged for a closer look

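Hbb-b1 read 4.31 (log2) on TRIM33 replicate 5, against 2.97 on the next highest of the 6 Xist set arrays. The gap to the nearest array was 0.866 of the whole range, above Dixon's 95% critical value of 0.625 for 6 samples. In all, 28 groups of 6 were checked (7 genes by genotype and by set), and chance flags about 1 in 20 groups that have a single spread. The groups by genotype span both sets, so that rate does not hold there for genes whose sets part. Hbb-bs read 3.0 on that array, within the 1.5 to 3.30 of the set, and Alas2 4.10, within 3.57 to 4.14.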

How the results depend on the processing

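For the 7 red cell genes, limma called 0 under each of the alternatives run, as it did for the 79 genes of the other red cell lists. The sign of a member's difference turned under some settings for every member except Epb42, always without passing the threshold. The number of genes called among all genes was 5 in the planned fit. It was 9 with the array set as a block, 3 in the Xist set, 8 in the Y set, 0 in the arrays not titled as mixes, and 10 in the mixes alone with the mix number as a replicate block, against 7 in the mixes without it. Same-numbered mixes deviated together with r = 0.118 over genes, from 2 pairs only, and the labels do not say that the number pairs them. Leaving out each array gave 5 to 9 genes without the block and 9 to 15 with it. The highest counts came without TRIM33 replicate 4, and the next with the block, 12, without TRIM33 replicate 3. The cause was not tested. Without the block, leaving out an array unbalances the sets: Hbb-bs then ran from -1.02 (log2, without WT replicate 1) to 1.07 (without TRIM33 replicate 6) and Hbb-b1 from -0.55 to 1.19, wider than their SDs within a set. Hemgn ran from -0.16 in the Xist set to 0.20 in the Y set, and Klf1 from -0.09 to 0.03. The filter on dim genes removed Epb42, Hemgn and Klf1. How far the low globin values lie above background is not known and limits the differences between sets.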
